A study of Cannabis sativa with 10 samples.

Results

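The genes described here are the cyclins, cyclin-dependent kinases (CDKs) and DNA replication factors of Cannabis sativa, 90 of the 35192 genes listed in the deposited table. They were chosen by name alone: a gene was taken where its product description names a lettered and numbered cyclin, a cyclin-dependent kinase, a cell division control (CDC) protein, an MCM licensing factor, proliferating cell nuclear antigen (PCNA), an origin recognition complex subunit, or DNA polymerase alpha, delta or epsilon. That choice uses names and no measured level, but genes, lists and tests were chosen with earlier results of these data known. All libraries came from shoot apices of 1 genotype, A3, in 5 groups of 2 libraries: vegetative, male week 1, female week 1, male week 3 and female week 3. Male apices carried flowers induced with a treatment that the labels give as STS, read here as silver thiosulfate, which blocks ethylene perception and lets female cannabis plants form male flowers. Female apices came from flowering plants for which no agent is named, and vegetative apices from plants that were not flowering, so that male and STS cannot be told apart in any comparison of the sexes. The labels do not say whether the 2 libraries of a group came from separate plants, and the p-values below measure only the spread between these libraries, which may be technical.

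Cyclins bind and activate CDKs, and the pairs drive a plant cell through its division cycle. D-type cyclins with A-type CDKs act at entry into the cycle, A-type cyclins in S phase and G2, and B-type cyclins with B-type CDKs at mitosis, while CDK inhibitors of the KRP family hold the kinases back. Before S phase, the origin recognition complex (ORC) and CDC6 load the MCM helicase on DNA, and PCNA clamps the replicative polymerases to the template. In a shoot apex these genes are used by the meristem and young organs, and in the anther also by the cells that enter meiosis.

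Levels are FPKM, a fragment count scaled to gene length and library depth, and differences are on the log2(FPKM + 1) scale, on which changes of weakly expressed genes come out too small. The limma test covered the 18309 genes whose mean reached 1 FPKM in any group, and a gene was called where its p-value, adjusted over all these genes, was under 0.05. Differences are given with their standard error from that fit, as the first-named group minus the second. Where a call was lost with 1 library left out, that library is named with the adjusted p without it in parentheses. FPKM totals ran from 603616 to 764672 per library, and the depth in reads is unknown. The lowest totals, 630805 and 603616 FPKM, were those of the female week 3 libraries. All other libraries had at least 706260 FPKM. Replicates correlated at 0.980 to 0.992 over genes.

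Markers of other cells moved with the groups. The summed level of 11 meiosis genes was 461 and 275 FPKM in male week 3 libraries and between 23.1 and 33.6 FPKM in the other 8. All 11 reached 1 FPKM in both male week 3 libraries, and DMC1, a recombinase of meiosis, had 159 and 85 FPKM there. For 12 tapetum and pollen wall genes the sums were 1622 and 2304 FPKM in male week 3 libraries and at most 17.4 FPKM elsewhere, where 3 to 6 of the 12 were at 0 in both libraries of a group. The sum of 19 green leaf genes lay between 5006 and 7459 FPKM at week 3 and between 12855 and 31359 FPKM in the earlier libraries. A list of 9 shoot meristem genes summed to 75.6 and 89.5 FPKM in male week 3, 162 and 160.0 FPKM in female week 3, and 103 to 125 FPKM in the other libraries; WUSCHEL, which maintains the stem cells, was at 0 in both vegetative libraries. A list of 6 carpel and ovule genes summed to 307 and 276 FPKM in male week 3, 129 and 107 FPKM in female week 3, and 16.7 to 43.9 FPKM in the other libraries. In male week 3 the gene named AGAMOUS (LOC115700192) made up 286 and 254 FPKM of that sum, against 2.88 and 2.38 FPKM in female week 3. The male week 3 sum was thus mostly AGAMOUS, and nothing about carpel cells is read from it. AGL11 (LOC133031811) had 1.17 and 0.846 FPKM in male and 83.8 and 69.8 FPKM in female week 3. The part of these cells in the results below was not tested. In such bulk samples, fewer cells of a type and less RNA per cell cannot be told apart.

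By role, the 90 genes comprise 13 D-type, 7 A-type and 2 B-type cyclins, 16 cyclins of other letters, 5 CDK inhibitors, 17 CDKs or CDK subunits, 8 ORC subunits or CDC6, 7 MCM genes, 3 PCNA genes, 7 polymerase subunits and 5 CDC48 genes. Of them 84 passed the filter on low values. Among these, 3 passed through male week 3 alone (cyclin-A3-4-like, cyclin-D5-1-like and ORC1A) and 1 through vegetative apices alone (cyclin-D7-1), so that higher levels in that group were set by the filter and nothing is read from their calls. The 6 that did not were cyclin-A3-2-like (LOC115696358) and a CDC2 homolog (LOC133031036), both listed at 0 in every library, together with cyclin-D2-1-like (LOC133032428), cyclin-U1-1 (LOC115718758), cyclin-U2-1-like (LOC133033391) and DNA polymerase epsilon catalytic subunit A-like (LOC133039833), whose highest value in any library was 0.991 FPKM. The median level over libraries was 21.4 FPKM for the 84 genes, against 13.7 FPKM for all genes tested. On chromosome X lay 16 of the 90 genes, or 17.8%, against 11.5% of the genes tested, and 2 genes had no assigned chromosome. The closest Arabidopsis protein in the table shared a median of 62.4% of residues.

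Cyclin-B1-2 (LOC115700847) was the highest of the 90 genes, with a mean of 217 FPKM over libraries. Its Arabidopsis match, at 73.8% identity, is annotated as the proteasome maturation factor UMP1, which goes against the cyclin name. After it came CDK regulatory subunit 1 (CKS1, LOC115701496), a small protein that binds CDKs, with a mean of 181 FPKM, and CDC48 homolog D (LOC115709618), a chaperone-like ATPase, with 174 FPKM. Copies with near-identical matches are uncertain, because reads of one can be counted to another: the 2 MCM7 genes, the 3 PCNA genes, CDK D-3 and D-3-like, cyclin-U2-1 and U2-1-like, and ORC1A and ORC1A-like.

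**Figure D1:**
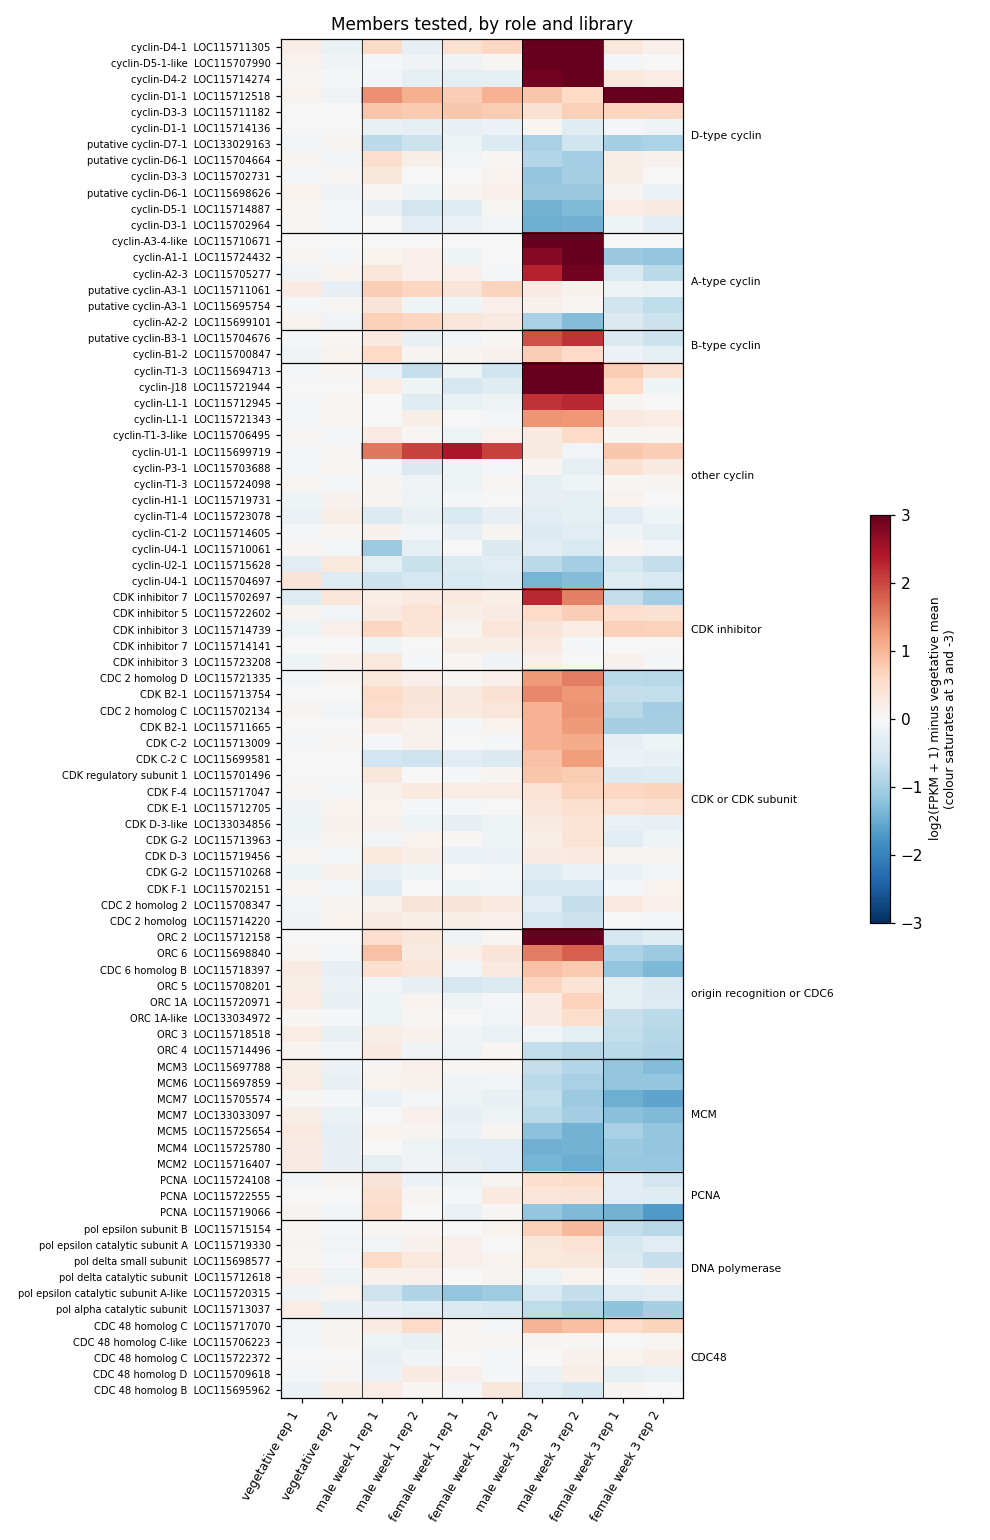
Each row is 1 of the 84 genes tested, grouped by role, and each column 1 library, in the order vegetative, male week 1, female week 1, male week 3 and female week 3. Colour is log2(FPKM + 1) minus the vegetative mean of the gene: red is above it, blue below. The 4 week 1 columns are pale apart from cyclin-U1-1, cyclin-D1-1 and a few more rows, the male week 3 columns hold the deepest red, and the MCM rows are blue in all 4 week 3 libraries.

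At week 1 few of these genes differed from vegetative apices. In male week 1 apices 6 were higher and 3 lower, 10.7% of the 84, where 6.40% of all genes tested were called, 3.54% higher and 2.86% lower. Only 3 of the 9 calls held with any 1 library left out. In female week 1 apices 3 were higher and 1 lower, against 4.94% called among all genes, 2.67% higher and 2.27% lower, and 2 of these 4 calls held with any 1 library left out.

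Cyclin-U1-1 (LOC115699719; chromosome 8, 41315716 to 41316882), a P-type cyclin by its match, showed the largest week 1 difference of the 84 genes in either sex. Its levels were 9.32 and 9.76 FPKM in vegetative libraries, 30.5 and 41.6 in the male and 55.3 and 43 in the female libraries of week 1, and 11.7 and 8.93 in the male and 17.6 and 16.7 in the female libraries of week 3. Both sexes stood above the vegetative libraries at week 1 without overlap. The difference from vegetative apices was 1.80 ± 0.18 (adjusted p = 0.000703) in male and 2.24 ± 0.18 (adjusted p = 0.000264) in female week 1 apices. At week 3 the level was lower than at week 1, at -1.70 ± 0.18 (adjusted p = 2.43e-05) in male and -1.46 ± 0.18 (adjusted p = 0.000316) in female apices.

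A pair of D-type cyclins also differed at week 1. Cyclin-D3-3 (LOC115711182; chromosome X, 64114701 to 64116709) had 48.8 and 50.3 FPKM in vegetative libraries, 88.8 and 85.7 in the male and 88 and 84.7 in the female libraries of week 1, and 68.8 and 81.3 in the male and 78.3 and 77.1 in the female libraries of week 3. Every flowering library was above both vegetative ones. It was higher than in vegetative apices by 0.80 ± 0.11 (adjusted p = 0.00286) at male week 1 and by 0.79 ± 0.11 (adjusted p = 0.00481) at female week 1, and the calls at male and female week 3 were 0.58 and 0.64 (adjusted p = 0.00123 and 0.00188). Cyclin-D1-1 (LOC115712518; chromosome 4, 70705534 to 70707954) was low before week 3 and is described with the other D-type cyclins.

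Beside these, DNA polymerase epsilon catalytic subunit A-like (LOC115720315) had 4.26 and 3.32 FPKM in male and 2.58 and 2.89 FPKM in female week 1 libraries, against 6.5 and 7.73 FPKM in vegetative ones. It was lower in both sexes, at -0.76 ± 0.17 (adjusted p = 0.0246) in male and -1.12 ± 0.17 (adjusted p = 0.00553) in female apices. The male call was lost without vegetative replicate 1 (0.0526), vegetative replicate 2 (0.149) or male week 1 replicate 2 (0.0792) and the female call without female week 1 replicate 1 (0.0503). The 5 other male week 1 calls did not hold with every library. Cyclin-A2-2 (LOC115699101) was higher, at 0.67, lost without vegetative replicate 1 (0.0603), vegetative replicate 2 (0.161) or male week 1 replicate 1 (0.0889). Cyclin-A3-1 (LOC115711061) was higher, at 0.70, lost without vegetative replicate 2 (0.229), male week 1 replicate 1 (0.123) or male week 1 replicate 2 (0.0572). CDK B2-1 (LOC115713754) was higher, at 0.48, lost without vegetative replicate 1 (0.149), vegetative replicate 2 (0.169) or male week 1 replicate 1 (0.152). CDK C-2 C (LOC115699581) was lower, at -0.60, lost without vegetative replicate 1 (0.138), vegetative replicate 2 (0.142), male week 1 replicate 1 (0.0859) or male week 1 replicate 2 (0.0757). Cyclin-D7-1 (LOC133029163), which passed the filter through vegetative apices alone, was lower, at -0.72, lost without vegetative replicate 1 (0.0995), male week 1 replicate 1 (0.161) or male week 1 replicate 2 (0.0645).

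Between male and female apices at week 1 limma called none of the 84 genes, where it called 0.137% of all genes tested, 0.120% higher and 0.0164% lower in male. At an unadjusted p under 0.05 there were 8. The authors' deposited table likewise calls none of the 90 genes at an adjusted p under 0.05 in that comparison.

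At week 3 the sexes differed in 52 of the 84 genes, 38 higher and 14 lower in male than in female apices; the 38 include the 3 genes that passed the filter through male week 3 alone. Among all genes 60.3% were called, so the number itself was close to the background. Of all genes, 31.7% were higher and 28.6% lower in male week 3. The split depended on scaling. Values were also rescaled to a common total per library (TPM), which moved the median of all genes by -0.245 in this comparison. Then 33 were higher and 28 lower, where 12613 of the 18912 genes tested under TPM were called. Each group's change from its own week 1 differed too. In male apices 28 genes were higher and 24 lower at week 3 than at week 1, where 61.7% of all genes were called, 33.8% higher and 27.9% lower. The 28 include LOC115710671 and LOC115707990, an A-type and a D-type cyclin that passed the filter through male week 3 alone, which fixed their direction. In female apices 8 were higher and 32 lower, with 35.2% of all genes called, 18.7% higher and 16.5% lower. Under TPM, which moved the median of all genes by 0.195, the female split was 17 higher and 23 lower. Of all 18912 genes tested under TPM, 7951 were called.

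Against vegetative apices, 35 genes were higher and 24 lower in male week 3, where 62.8% of all genes were called, 34.8% higher and 27.9% lower. The 35 also include LOC115710671 and LOC115707990, whose direction was fixed by the filter. In female week 3 apices 9 were higher and 30 lower, where 36.5% of all genes were called, 19.8% higher and 16.8% lower. The 24 and the 30 lower genes both include cyclin-D7-1 (LOC133029163). It passed the filter through vegetative apices alone, which fixed its direction. Under TPM the female split was 14 higher and 21 lower, where 7950 of 18912 genes were called.

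**Figure D2:**
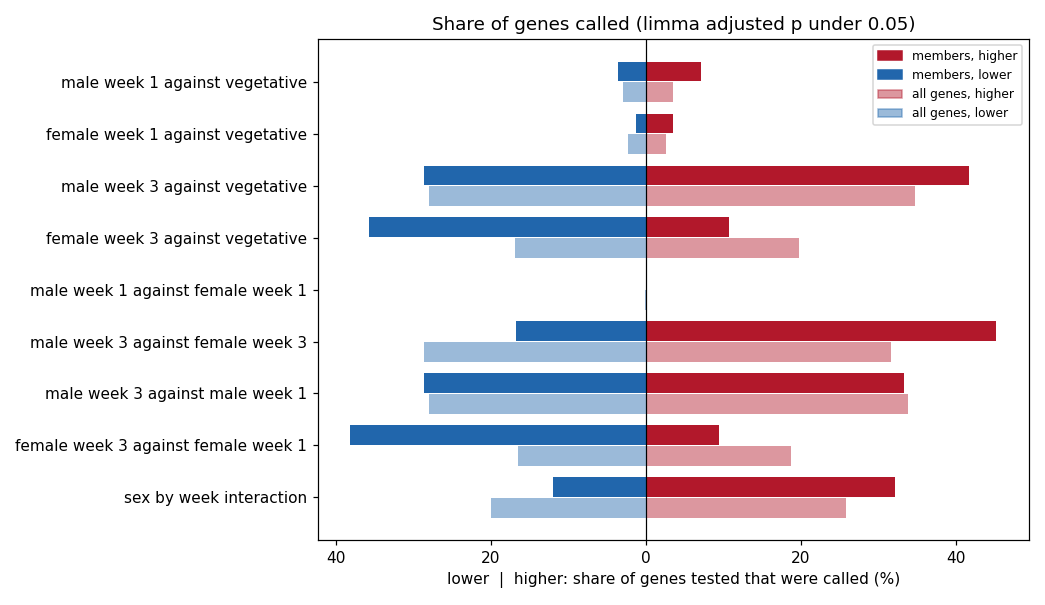
For each comparison, bars show the percent of the 84 genes (solid) and of all 18309 genes tested (pale) that limma called, with lower to the left of 0 and higher to the right. In female week 3 against female week 1, the solid bar for lower, at 32 of 84 genes, is longer than the pale one, at 16.5%, and in male week 3 against female week 3 the solid bar for higher, at 38 of 84 genes, is longer than the pale one, at 31.7%.

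A-type cyclins differed widely between the sexes at week 3. Of 6 tested, 4 were higher and 1 lower in male than in female week 3 apices, where 31.7% of all genes were higher and 28.6% lower. But 1 of the 4, cyclin-A3-4-like, passed the filter through male week 3 alone. The other 3 higher calls held with any 1 library left out. Cyclin-A1-1 (LOC115724432; chromosome 6, 3074414 to 3077270) had 40.2 and 37.8 FPKM in vegetative libraries, 41.7 and 43.7 in the male and 35.4 and 39.2 in the female libraries of week 1, and 264 and 384 in the male and 17.5 and 16.5 in the female libraries of week 3. The male week 3 libraries were far above and the female week 3 libraries below all others. In male week 3 apices its mean was 19 times that in female week 3 apices, a difference of 4.15 ± 0.16 (adjusted p = 1.72e-08). Against week 1 of the same sex it was higher by 2.87 ± 0.16 (adjusted p = 2.25e-07) in male and lower, at -1.09 ± 0.16 (adjusted p = 0.00081), in female week 3 apices.

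Cyclin-A2-3 (LOC115705277; chromosome 1, 46018322 to 46022762), which in Arabidopsis restrains endoreduplication, had 18.8 and 22.1 FPKM in vegetative libraries, 26.6 and 22.8 in the male and 22.6 and 19.9 in the female libraries of week 1, and 104 and 158 in the male and 14.6 and 11.2 in the female libraries of week 3. Again the male week 3 libraries lay above all others and the female week 3 libraries below them, and the male week 3 replicates lay further apart than the lowest and the highest of the other 8. The difference between male and female week 3 was 3.23 ± 0.20 (adjusted p = 5.08e-07). Between the weeks it was 2.34 ± 0.20 (adjusted p = 5.35e-06) in male and -0.69 ± 0.20 (adjusted p = 0.0252) in female apices, and the female call was lost without female week 1 replicate 1 (0.136), female week 1 replicate 2 (0.0579) or female week 3 replicate 2 (0.182).

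Cyclin-A3-4-like (LOC115710671; chromosome 3, 18718152 to 18720722) was found in male week 3 alone among these libraries, with 42.9 and 48 FPKM, and was listed at 0 in the other 8. No fold can be given against groups at 0. It entered the test through male week 3 only and so had to differ. Cyclin-A3-1 (LOC115711061), which shares its closest Arabidopsis protein with it, had 11.8 and 10.9 FPKM in male and 8.66 and 8.34 FPKM in female week 3 libraries.

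The reverse held for cyclin-A2-2 (LOC115699101; chromosome X, 79482314 to 79487305). It had 11.8 and 10.2 FPKM in vegetative libraries, 18.5 and 17.6 in the male and 14.4 and 13.6 in the female libraries of week 1, and 5.10 and 3.88 in the male and 7.84 and 6.70 in the female libraries of week 3. No 2 groups overlapped, and week 3 was below both earlier stages in each sex. The differences between week 3 and week 1 were -1.81 ± 0.15 (adjusted p = 3.5e-06) in male and -0.86 ± 0.15 (adjusted p = 0.00177) in female apices. It was lower in male than in female week 3, at -0.60 ± 0.15 (adjusted p = 0.00595), a call lost without female week 3 replicate 1 (0.0578). The second cyclin-A3-1 (LOC115695754) had 12.1 and 11.5 FPKM in male and 7.03 and 6.10 FPKM in female week 3 libraries, a difference of 0.76 ± 0.18 (adjusted p = 0.00422).

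Only 1 further cyclin here carries a B-type name. Cyclin-B3-1 (LOC115704676; chromosome 1, 51416635 to 51424918) had 6.24 and 6.77 FPKM in vegetative libraries, 8.16 and 5.40 in the male and 6.08 and 6.62 in the female libraries of week 1, and 27.2 and 32.8 in the male and 4.56 and 3.83 in the female libraries of week 3. It was 7.15 times as high in male as in female week 3 apices, at 2.57 ± 0.18 (adjusted p = 1.3e-06), with the male week 3 libraries above all others. The gene named cyclin-B1-2, with the UMP1 match, had 313 and 278 FPKM in male and 166 and 153 FPKM in female week 3 libraries, a difference of 0.88 ± 0.17 (adjusted p = 0.00139).

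**Figure D3:**
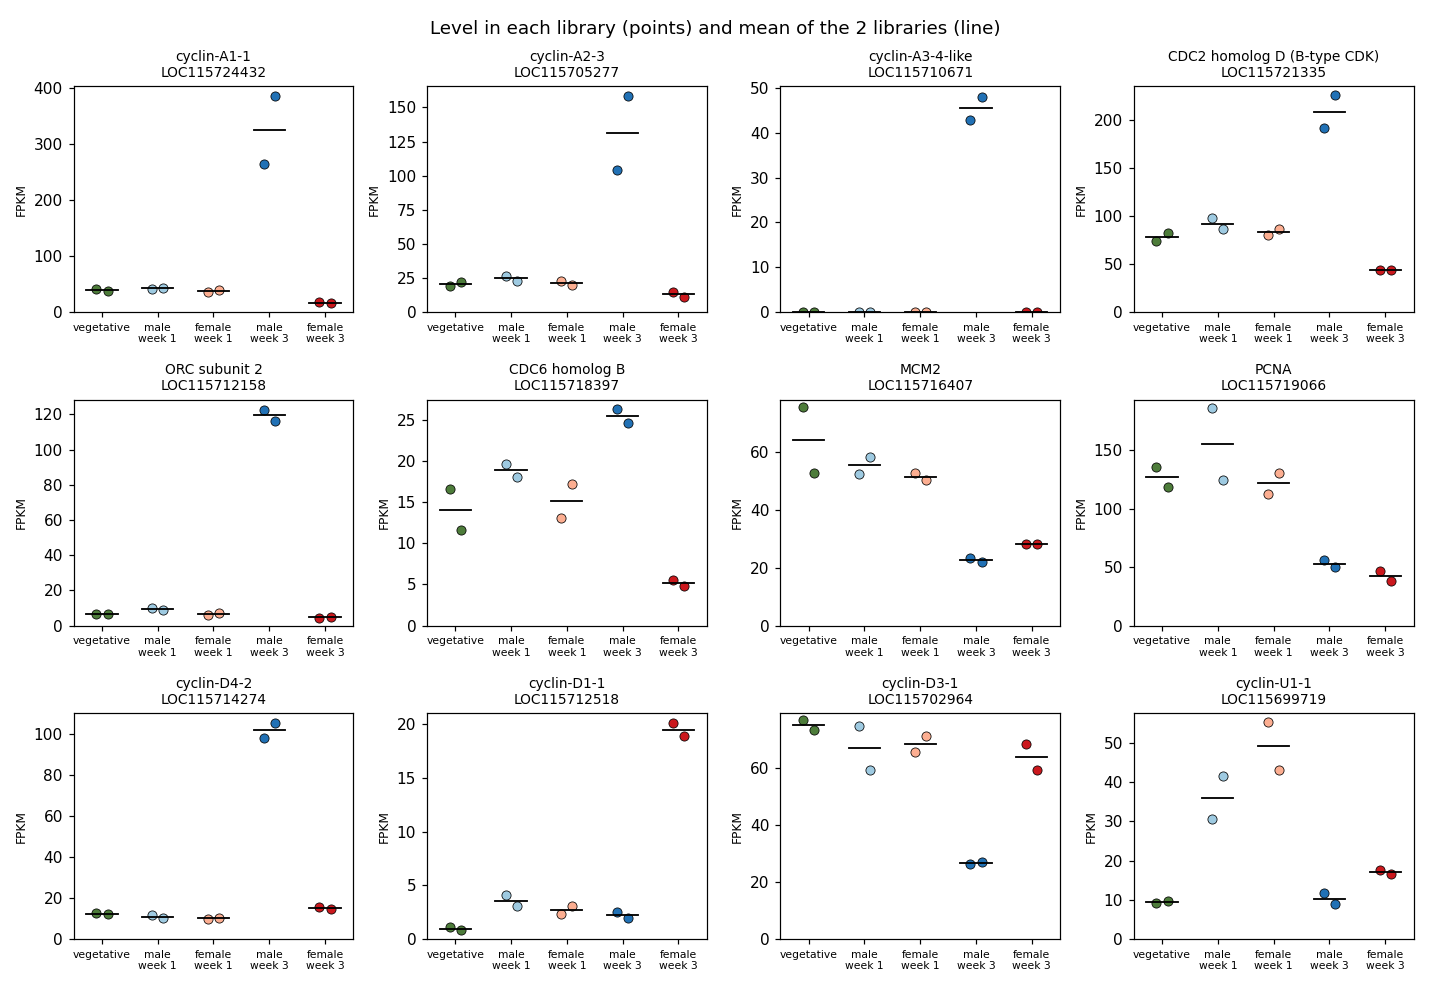
Panels give the FPKM of 12 genes in every library (points, with the 2 replicates side by side) and the mean of each group (line), with vegetative, male week 1, female week 1, male week 3 and female week 3 from left to right and an axis from 0 in each panel. Male week 3 points stand highest for the 3 A-type cyclins, CDC2 homolog D, ORC2, CDC6 and cyclin-D4-2, female week 3 points for cyclin-D1-1, and week 1 points for cyclin-U1-1, while MCM2 and PCNA are low at week 3 in both sexes.

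The B-type kinases, which are made around mitosis, parted in the same way. By their matches 4 of the 16 genes tested for CDKs or their subunits are B-type: CDC2 homolog C (B1;2 in Arabidopsis), CDC2 homolog D and the 2 genes named CDK B2-1. All 4 were higher in male week 3 than in male week 1 and lower in female week 3 than in female week 1, and these 8 calls held with any 1 library left out. CDC2 homolog D (LOC115721335; chromosome 2, 3792980 to 3795191) had 73.4 and 82.4 FPKM in vegetative libraries, 97.4 and 86.1 in the male and 79.7 and 86.4 in the female libraries of week 1, and 191 and 226 in the male and 43.7 and 43.3 in the female libraries of week 3. The male week 3 libraries were above, and the female week 3 libraries below, every library of the earlier groups. It was 4.80 times as high in male as in female week 3, at 2.23 ± 0.13 (adjusted p = 2.41e-07). The other 3 had ratios of 4.6 for CDC2 homolog C (LOC115702134), 4.61 for CDK B2-1 LOC115711665 and 4.36 for CDK B2-1 LOC115713754, so that the 4 kinases lay close together in this ratio. The week 3 against week 1 differences were 1.17, 0.76, 0.99 and 0.88 in male apices and -0.92, -1.27, -1.02 and -1.10 in female apices, in that order of genes.

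The A-type kinases did not follow them. By their matches 2 genes are closest to Arabidopsis CDKA;1, the kinase used through the whole cycle. The CDC2 homolog LOC115714220 had 37.8 and 34.5 FPKM in male week 3 libraries, against 55.7 and 53.2 FPKM in female week 3 and 64.9 and 62.1 FPKM in male week 1 libraries. CDC2 homolog 2 (LOC115708347) had 19 and 14.2 FPKM in male week 3, against 29.8 and 26.9 FPKM in female week 3 and 26.4 and 31.7 FPKM in male week 1. In both genes male week 3 lay below the other groups without overlap. The differences from male week 1 were -0.80 ± 0.11 (adjusted p = 0.000154) for the first and -0.78 ± 0.16 (adjusted p = 0.00154) for the other, and those from female week 3 were -0.58 ± 0.11 (adjusted p = 0.00128) and -0.75 ± 0.16 (adjusted p = 0.00208). Between the weeks in female apices the differences were -0.17 ± 0.11 (adjusted p = 0.259) and -0.10 ± 0.16 (adjusted p = 0.671), which did not pass the test.

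CKS1 had 286 and 274 FPKM in male and 121 and 124 FPKM in female week 3 libraries. At week 1 it had 202 and 159 FPKM in male and 157 and 169 FPKM in female libraries. It was higher in male week 3 than in female week 3 by 1.18 ± 0.13 (adjusted p = 3.47e-05). The transcription-linked kinases CDK C-2 (LOC115713009) and CDK C-2 C (LOC115699581) were also higher in male week 3 than in female week 3, at 1.26 ± 0.11 (adjusted p = 5.6e-06) and 1.26 ± 0.14 (adjusted p = 3.71e-05). CDK F-4 (LOC115717047) and CDK E-1 (LOC115712705, the Mediator kinase) were instead higher at week 3 than in vegetative apices in both sexes, by 0.57 and 0.42 in male and 0.64 and 0.46 in female week 3. The CDK E-1 calls were lost in male without vegetative replicate 1 (0.0843) or male week 3 replicate 2 (0.0528) and in female without vegetative replicate 1 (0.0883), female week 3 replicate 1 (0.0661) or female week 3 replicate 2 (0.0809). CDK F-1 (LOC115702151), a kinase that activates other CDKs, was lower in male than in female week 3, at -0.55 ± 0.13 (adjusted p = 0.00466). CDK G-2 (LOC115713963) was higher in male than in female week 3 at 0.51, lost without male week 3 replicate 2 (0.0677) or female week 3 replicate 1 (0.0846), and CDK D-3-like (LOC133034856) at 0.55, lost without male week 3 replicate 2 (0.0582), female week 3 replicate 1 (0.0588) or female week 3 replicate 2 (0.0743). CDK D-3 (LOC115719456) and the other CDK G-2 (LOC115710268) had no call in any comparison.

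Among the 5 KRP-type inhibitors 1 stood apart. CDK inhibitor 7 (LOC115702697; chromosome X, 20833344 to 20834952) had 11.7 and 20.2 FPKM in vegetative libraries, 17.9 and 19.2 in the male and 19 and 17.7 in the female libraries of week 1, and 77.7 and 45.7 in the male and 8.93 and 7.09 in the female libraries of week 3. Both male week 3 libraries were above all others, and the female week 3 libraries below them. It was higher in male than in female week 3 by 2.76 ± 0.27 (adjusted p = 1.33e-05), and higher in male week 3 than in male week 1 by 1.64 ± 0.27 (adjusted p = 0.00049). The other gene of this name (LOC115714141), with the same Arabidopsis match, had 27.2 and 21.2 FPKM in male and 22 and 22.2 FPKM in female week 3 libraries and no call in any comparison. CDK inhibitor 3 (LOC115714739) had 32.2 and 28.2 FPKM in male week 3, 40.2 and 39.9 FPKM in female week 3 and 21.8 and 26.9 FPKM in vegetative libraries, and was higher in female week 3 than in vegetative apices by 0.70 ± 0.15 (adjusted p = 0.00513). CDK inhibitor 5 (LOC115722602) was higher than in vegetative apices in male week 3 by 0.65 ± 0.12 (adjusted p = 0.000793) and in female week 3 by 0.49 ± 0.12 (adjusted p = 0.00961), the female call being lost without vegetative replicate 2 (0.0702), female week 3 replicate 1 (0.0687) or female week 3 replicate 2 (0.0543). The highest inhibitor by mean level, CDK inhibitor 3 LOC115723208, ranged from 54.8 to 74 FPKM over all libraries and had no call.

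D-type cyclins split in 2 directions in male week 3 apices. Of 12 tested, 3 were higher and 6 lower in male week 3 than in female week 3, where 31.7% of all genes were higher and 28.6% lower. Of the 3, cyclin-D5-1-like passed the filter through male week 3 alone. The other 8 calls held with any 1 library left out. Under TPM 3 were higher and 7 lower. Cyclin-D4-2 (LOC115714274; chromosome 4, 66140342 to 66143460) had 12.7 and 12.1 FPKM in vegetative libraries, 11.7 and 10.2 in the male and 9.97 and 10.2 in the female libraries of week 1, and 98.4 and 106 in the male and 15.8 and 14.8 in the female libraries of week 3. Its male week 3 libraries stood far above all others, by 2.66 ± 0.11 (adjusted p = 3.19e-08) over female week 3. Cyclin-D4-1 (LOC115711305; chromosome X, 55573487 to 55576970) had 48 and 47.9 FPKM in male and 2.26 and 1.90 FPKM in female week 3 libraries and at most 2.99 FPKM in any other library. The difference was 3.99 ± 0.25 (adjusted p = 4.55e-07). Cyclin-D5-1-like (LOC115707990) had 13.8 and 19.5 FPKM in male week 3 libraries, and no other library passed 0.168 FPKM, so that it too entered the test through male week 3 alone.

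The 6 that were lower in male than in female week 3 included cyclins D3-3 and D3-1. Cyclin-D3-3 (LOC115702731; chromosome X, 22081063 to 22082965) had 74.5 and 77.5 FPKM in vegetative libraries, 96.8 and 76.2 in the male and 75.1 and 82 in the female libraries of week 1, and 33.3 and 37.4 in the male and 88 and 75.2 in the female libraries of week 3. Cyclin-D3-1 (LOC115702964; chromosome X, 20174245 to 20176429), which with other D3 cyclins prolongs division in Arabidopsis shoots, had 76.6 and 73.3 FPKM in vegetative libraries, 74.7 and 59.3 in the male and 65.6 and 71 in the female libraries of week 1, and 26.4 and 26.9 in the male and 68.5 and 59.4 in the female libraries of week 3. In both genes the male week 3 libraries were below all other libraries, which overlapped among themselves. The difference between male and female week 3 was -1.18 ± 0.14 (adjusted p = 5.62e-05) for D3-3 and -1.23 ± 0.13 (adjusted p = 2.62e-05) for D3-1. Cyclin-D6-1 LOC115698626 had 14.2 and 14.1 FPKM in male and 33.8 and 27.9 FPKM in female week 3, a difference of -1.06. The other cyclin-D6-1 (LOC115704664) had 11.5 and 10.4 FPKM in male and 24.8 and 24.2 FPKM in female week 3, a difference of -1.10. D6 cyclins are known in Arabidopsis from formative divisions in the root. Cyclin-D5-1 (LOC115714887) had 4.94 and 5.26 FPKM in male and 17.4 and 18.1 FPKM in female week 3, a difference of -1.62 ± 0.16 (adjusted p = 1.71e-05). The D5-1 gene and the D5-1-like gene, whose closest Arabidopsis protein is the same differed between the sexes in opposite directions.

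The sixth, cyclin-D1-1 LOC115712518, was highest in female week 3. It had 1.12 and 0.829 FPKM in vegetative libraries, 4.05 and 3.10 in the male and 2.30 and 3.08 in the female libraries of week 1, and 2.48 and 1.99 in the male and 20.1 and 18.8 in the female libraries of week 3. Female week 3 stood above all other libraries, and every flowering library above the vegetative ones. The mean in female week 3 was 8.69 times that in male week 3, and the difference of male from female was -2.66 ± 0.18 (adjusted p = 8.28e-07). Against week 1, female week 3 was higher by 2.48 ± 0.18 (adjusted p = 1.66e-05). Male week 3 was lower than male week 1, at -0.50 ± 0.18 (adjusted p = 0.0346), a call lost without male week 1 replicate 1 (0.18) or male week 3 replicate 2 (0.157). At week 1 it was higher than in vegetative apices in male, at 1.21 ± 0.18 (adjusted p = 0.00372), and in female, at 0.90 ± 0.18 (adjusted p = 0.0198); the female call was lost without vegetative replicate 1 (0.0532), vegetative replicate 2 (0.121), female week 1 replicate 1 (0.0524) or female week 1 replicate 2 (0.165). The other cyclin-D1-1 (LOC115714136) lay between 11 and 15.2 FPKM over all libraries and had no call. Cyclin-D7-1 (LOC133029163) stayed at or below 1.21 FPKM in every library.

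Cyclins of other letters, several of which act in transcription or RNA processing rather than in the cycle, included steep differences in male week 3. Of 14 tested, 5 were higher and 3 lower in male than in female week 3. That is 57.1% called, close to the 60.3% of all genes. Among all genes 31.7% were higher and 28.6% lower. Of the 5 higher calls 4, and of the 3 lower calls 1, held with any 1 library left out. Under TPM the balance of these cyclins turned to 4 higher and 7 lower of 15. Cyclin-T1-3 (LOC115694713; chromosome 6, 10860068 to 10863535), of a family that activates transcription kinases, had 5.93 and 6.59 FPKM in vegetative libraries, 5.40 and 3.52 in the male and 5.49 and 3.80 in the female libraries of week 1, and 132 and 115 in the male and 11.2 and 9.03 in the female libraries of week 3. Male week 3 exceeded female week 3 by 3.49 ± 0.20 (adjusted p = 3.01e-07). Female week 3 was in turn above female week 1, by 0.99 ± 0.20 (adjusted p = 0.00464). Its near relatives by Arabidopsis match were flatter. Cyclin-T1-3-like (LOC115706495) had 26.2 and 32.4 FPKM in male and 22.2 and 22.6 FPKM in female week 3, and was also called higher in male. The second cyclin-T1-3 (LOC115724098) had 9.49 and 10.3 FPKM in male and 11.8 and 12.4 FPKM in female week 3.

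Cyclin-J18 (LOC115721944) had 22.7 and 19.8 FPKM in male and 2.16 and 0.928 FPKM in female week 3 libraries, a difference of 3.17 ± 0.23 (adjusted p = 1.63e-06). Cyclin-L1-1 LOC115712945, of a family that acts with splicing factors, had 81.7 and 87.4 FPKM in male and 18.6 and 17.6 FPKM in female week 3. The other cyclin-L1-1 (LOC115721343) had 39.7 and 38.7 FPKM in male and 19 and 17.8 FPKM in female week 3. Both were higher in male week 3, by 2.16 ± 0.14 (adjusted p = 5.61e-07) and 1.05 ± 0.11 (adjusted p = 2.52e-05). Cyclin-U4-1 (LOC115704697) was lower in male week 3, with 4.30 and 4.70 FPKM, than in female week 3, with 9.85 and 9.25 FPKM, at -0.94 ± 0.21 (adjusted p = 0.00361). Cyclin-P3-1 (LOC115703688), the highest of the other cyclins by mean level, lay between 54 and 100.3 FPKM, and its difference between male and female week 3 was -0.46 ± 0.16 (adjusted p = 0.0315), lost without male week 3 replicate 2 (0.215), female week 3 replicate 1 (0.173) or female week 3 replicate 2 (0.0573). Cyclins H1-1, T1-4, the second U4-1 (LOC115710061) and the second T1-3 had no call in any comparison. Cyclin-C1-2 (LOC115714605) was lower in male week 3 than in vegetative apices, at -0.38 ± 0.14 (adjusted p = 0.0334), lost without vegetative replicate 1 (0.0574), vegetative replicate 2 (0.151), male week 3 replicate 1 (0.128) or male week 3 replicate 2 (0.0633). Cyclin-U2-1 (LOC115715628), with at most 3.28 FPKM in a library, was also lower, at -0.90 ± 0.23 (adjusted p = 0.00569). Cyclin-U4-1 LOC115704697 was lower in this comparison as well, at -1.34 ± 0.21 (adjusted p = 0.000364). Of these 3 lower calls 1 held with any 1 library left out, and it was not that of cyclin-C1-2.

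The genes that load the helicase at origins and the helicase genes themselves did not move together in male apices. All 7 MCM genes were lower at week 3 than at week 1 in both sexes, and lower than in vegetative apices in both sexes; all 28 of these calls held with any 1 library left out, and the counts were 7 of 7 under TPM and under median-of-ratios scaling too. MCM2 (LOC115716407; chromosome 5, 71087987 to 71093254) had 75.2 and 52.6 FPKM in vegetative libraries, 52.4 and 58.1 in the male and 52.5 and 50.2 in the female libraries of week 1, and 23.1 and 21.9 in the male and 28.2 and 28.2 in the female libraries of week 3. Week 3 libraries of both sexes were below all earlier ones. The differences from week 1 were -1.26 ± 0.16 (adjusted p = 6.76e-05) in male and -0.84 ± 0.16 (adjusted p = 0.00256) in female apices. Over the 7 genes the median difference between week 3 and week 1 was -1.0 in male and -1.08 in female apices, where the medians of all genes were 0.029 and 0.025. Among all genes 10.7% were called lower at week 3 than at week 1 in both sexes. Against vegetative apices 27.9% of all genes were lower in male and 16.8% in female week 3.

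In the main fit none of the 7 was called in the sex by week interaction, which tests whether the change between weeks differs by sex. At an unadjusted p under 0.05 there were 2. Under TPM 2 of the 7 were called, on the female side, where 9582 of 18912 genes were called. Under median-of-ratios scaling 1 of the 7 was called, on the male side, where 8344 of 18350 genes were called. In the main fit the interaction called 37 of the 84 genes, 27 on the male and 10 on the female side. Of all genes it called 45.6%, 25.8% on the male and 19.9% on the female side. Among the 27 are LOC115710671 and LOC115707990, which passed the filter through male week 3 alone, so that their side was fixed. Between male and female week 3, MCM3 (LOC115697788) and MCM7 (LOC115705574) were higher in male, at 0.44 and 0.61, the MCM3 call being lost without male week 3 replicate 1 (0.0951) or female week 3 replicate 2 (0.112). Under TPM the MCM counts in this comparison turned round, with 1 higher and 3 lower in male. In the main fit 31.7% of all genes were higher and 28.6% lower in male.

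ORC and CDC6 genes were higher in male than in female week 3 in 7 of 8 cases, with none lower, and in 6 under TPM. Among all genes 31.7% were higher and 28.6% lower in the main fit. Of the 7, ORC1A passed the filter through male week 3 alone, and the other 6 calls held with any 1 library left out. ORC2 (LOC115712158; chromosome 4, 68791522 to 68795033) had 6.58 and 6.65 FPKM in vegetative libraries, 9.97 and 8.59 in the male and 6.06 and 6.92 in the female libraries of week 1, and 122 and 116 in the male and 4.40 and 4.95 in the female libraries of week 3. Both male week 3 libraries were far above the other 8, and the difference from female week 3 was 4.41 ± 0.13 (adjusted p = 2.01e-09). ORC6 (LOC115698840; chromosome 8, 7681310 to 7684167) had 7.89 and 7.40 FPKM in vegetative libraries, 14.9 and 9.34 in the male and 8.56 and 10.4 in the female libraries of week 1, and 24.2 and 29.2 in the male and 3.54 and 3.06 in the female libraries of week 3, with male week 3 highest and female week 3 lowest. Its difference between male and female week 3 was 2.69 ± 0.20 (adjusted p = 1.93e-06). CDC6 homolog B (LOC115718397; chromosome 2, 58335654 to 58340403) had 16.6 and 11.6 FPKM in vegetative libraries, 19.6 and 18.1 in the male and 13.1 and 17.2 in the female libraries of week 1, and 26.4 and 24.7 in the male and 5.57 and 4.84 in the female libraries of week 3. Male week 3 was above all other libraries and female week 3 below them, by 2.10 ± 0.18 (adjusted p = 4.93e-06) between the sexes, while the difference between male week 3 and male week 1 was 0.42 ± 0.18 (adjusted p = 0.0675) and did not pass the test.

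ORC4 (LOC115714496) went with the MCM genes. It had 2.37 and 2.14 FPKM in male week 3, against 5.77 and 4.23 FPKM in male week 1 libraries, and 2.19 and 2.07 FPKM in female week 3, against 4.05 and 4.86 FPKM in female week 1 libraries. The differences between weeks were -0.87 ± 0.17 (adjusted p = 0.0014) in male and -0.80 ± 0.17 (adjusted p = 0.00538) in female apices. ORC3 (LOC115718518), ORC5 (LOC115708201), ORC1A (LOC115720971) and ORC1A-like (LOC133034972) were higher in male than in female week 3 by 0.63, 0.87, 0.82 and 1.15. Under TPM the ORC3 call was lost, at 0.40 (adjusted p = 0.0687). In female apices 6 of the 8 were lower at week 3 than at week 1, 4 under TPM, where 16.5% of all genes were lower in the main fit. In male apices 4 were higher and 1 lower, where 33.8% of all genes were higher and 27.9% lower. Not all of these female and male calls held with any 1 library left out.

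**Figure D4:**
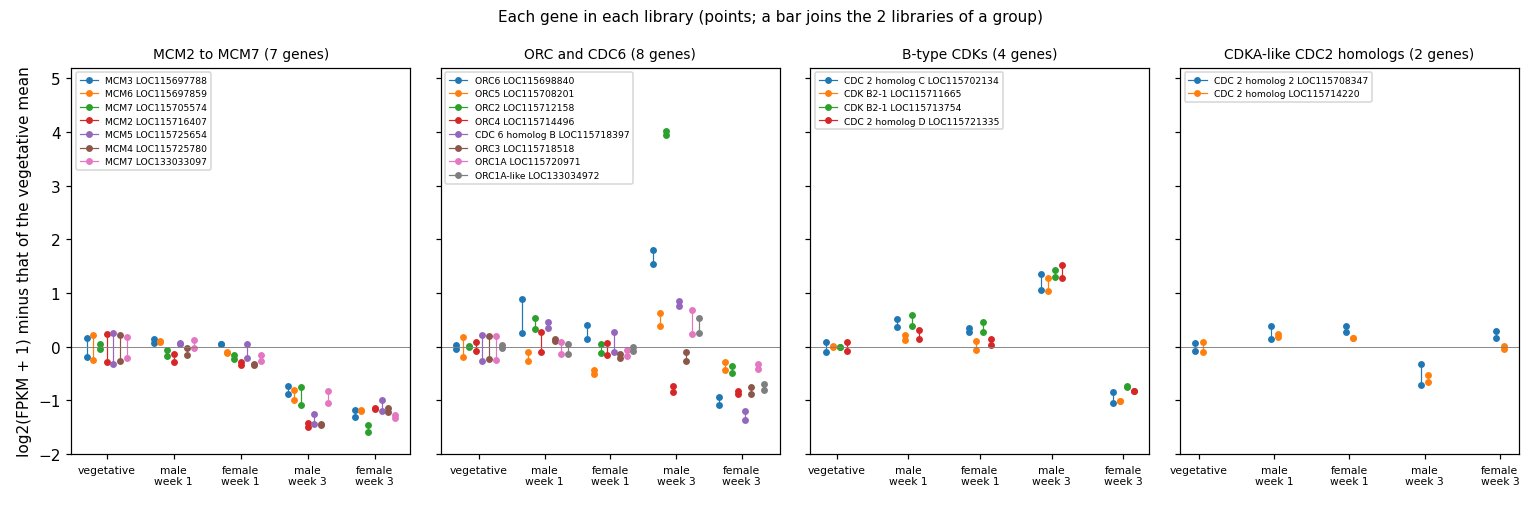
Each point is 1 library of 1 gene, as log2(FPKM + 1) minus that of the vegetative mean, and a bar joins the 2 libraries of a group; panels hold the MCM genes, the ORC and CDC6 genes, the 4 B-type CDKs and the 2 CDC2 homologs closest to CDKA;1. MCM points lie below 0 at week 3 in both sexes, B-type CDK points lie above 0 in male and below 0 in female week 3, and ORC2 stands apart in male week 3 at about 3.98.

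PCNA is listed 3 times, with the same closest Arabidopsis protein. The gene on chromosome 2 (LOC115719066) had 136 and 119 FPKM in vegetative libraries, 186 and 125 in the male and 113 and 131 in the female libraries of week 1, and 56 and 50.1 in the male and 46.7 and 38.5 in the female libraries of week 3. It was lower at week 3 than at week 1 in both sexes, at -1.51 ± 0.19 (adjusted p = 7.39e-05) in male and -1.50 ± 0.19 (adjusted p = 0.00033) in female apices, as were the MCM genes. Of the pair on chromosome 9, LOC115724108 had 31.5 and 32.3 FPKM in male and 17 and 14.3 FPKM in female week 3. Its neighbour LOC115722555 had 25 and 25.4 FPKM in male and 15 and 14.7 FPKM in female week 3. They were higher in male week 3 by 0.99 ± 0.18 (adjusted p = 0.000968) and 0.73 ± 0.16 (adjusted p = 0.0025). Since reads of these copies can be counted to one another, the levels of the single genes are uncertain.

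Of the polymerase subunits, alpha went with MCM and epsilon B with the B-type kinases. Polymerase alpha (LOC115713037), which primes new strands, had 12.1 and 10.9 FPKM in male and 8.67 and 10.2 FPKM in female week 3, against 24.9 and 18 FPKM in vegetative libraries, with differences from vegetative apices of -0.83 ± 0.16 (adjusted p = 0.0011) in male and -1.09 ± 0.16 (adjusted p = 0.000583) in female week 3. Polymerase epsilon subunit B (LOC115715154) had 12.2 and 11.8 FPKM in vegetative libraries, 12.4 and 12.6 in the male and 12.2 and 13 in the female libraries of week 1, and 20.2 and 24.4 in the male and 6.92 and 6.24 in the female libraries of week 3. It was highest in male week 3 and lowest in female week 3, 1.62 ± 0.13 (adjusted p = 2.71e-06) apart. Epsilon catalytic subunit A (LOC115719330) and the small subunit of delta (LOC115698577) were higher in male than in female week 3 by 0.79 and 0.88. The delta catalytic subunit (LOC115712618) lay between 11 and 13.8 FPKM and had no call.

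The 5 CDC48 genes enter by name and act in protein turnover rather than in replication. None was called between the sexes at week 3 by limma, where 60.3% of all genes were called. Only 1 had an unadjusted p under 0.05, and under TPM 2 were called lower in male. CDC48 homolog C LOC115717070 was higher at week 3 than in vegetative apices, with 7.66 and 7.05 FPKM in male and 5.41 and 5.76 FPKM in female week 3, against 3.04 and 3.53 FPKM in vegetative libraries, at 0.97 ± 0.16 (adjusted p = 0.000401) and 0.62 ± 0.16 (adjusted p = 0.0116); the female call was lost without vegetative replicate 1 (0.0664), female week 3 replicate 1 (0.0529) or female week 3 replicate 2 (0.079). CDC48 homolog D lay between 142 and 214 FPKM over all libraries. CDC48 homolog B (LOC115695962) was lower in male week 3 than in male week 1, at -0.55 ± 0.18 (adjusted p = 0.0214), a call lost without male week 1 replicate 1 (0.0877) or male week 3 replicate 2 (0.105).

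Put side by side, the changes between weeks in the sexes, which share no library, formed a few patterns. In 12 of the 84 genes week 3 was higher than week 1 in male and lower in female apices, or 14.3%, where 2.17% of all genes tested showed this pair of calls. The 12 were cyclins A1-1 and A2-3, CDK inhibitor 7 LOC115702697, the 4 B-type CDKs, CKS1, ORC2, ORC6, ORC1A-like and polymerase epsilon subunit B. In 13 genes, 15.5%, week 3 was lower in both sexes, against 10.7% of all genes: the 7 MCM genes, ORC4, PCNA LOC115719066, polymerase alpha, cyclin-A2-2, cyclin-A3-1 LOC115711061 and cyclin-U1-1 LOC115699719. Both sexes were higher in 5 genes, 5.95%, against 8.18% of all genes. Cyclin-D1-1 LOC115712518 was the single gene lower in male and higher in female apices, against 3.07% of all genes.

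Under TPM these counts became 9 genes higher in male and lower in female apices, or 10.6%, where 1.10% of all genes did so, and 11 lower in both, or 12.9%, against 7.87% of all genes. Of the 12, 7 kept both calls with any 1 library left out. The other 5 were cyclin-A2-3, given above, CDK inhibitor 7, lost in female apices without female week 1 replicate 1 (0.0599) or female week 3 replicate 2 (0.0824), CKS1, lost in female apices without female week 1 replicate 1 (0.104), female week 1 replicate 2 (0.191), female week 3 replicate 1 (0.177) or female week 3 replicate 2 (0.133), ORC2, lost in female apices without female week 1 replicate 1 (0.0657), female week 1 replicate 2 (0.199), female week 3 replicate 1 (0.199) or female week 3 replicate 2 (0.0777), and ORC1A-like, lost in male apices without male week 1 replicate 1 (0.144) or male week 3 replicate 2 (0.152) and in female apices without female week 1 replicate 1 (0.0506) or female week 3 replicate 2 (0.0538), with adjusted p in parentheses. Of the 13 lower in both, 11 kept both calls. Cyclin-A3-1 LOC115711061 lost the male call without male week 1 replicate 1 (0.0887), male week 3 replicate 1 (0.062) or male week 3 replicate 2 (0.118) and the female call without female week 1 replicate 2 (0.0775) or female week 3 replicate 2 (0.0604), and polymerase alpha lost the male call without male week 3 replicate 2 (0.0667) and the female call without female week 1 replicate 1 (0.0648) or female week 3 replicate 1 (0.0973).

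**Figure D5:**
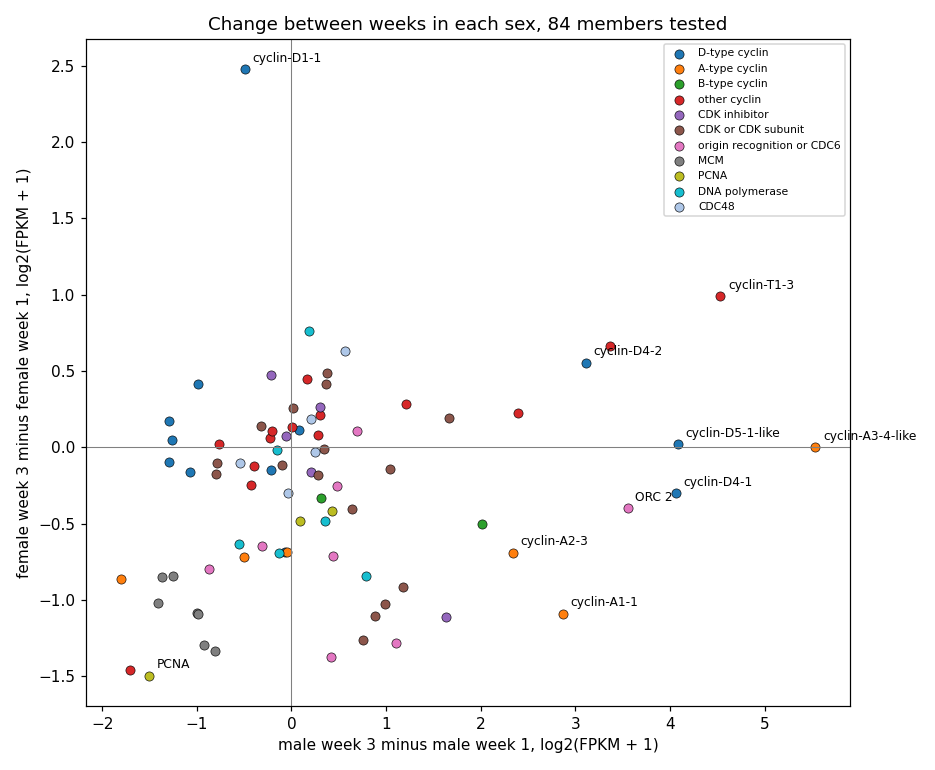
Each point is 1 of the 84 genes tested, coloured by role, with the difference between week 3 and week 1 on the log2(FPKM + 1) scale in male apices on the x axis and in female apices on the y axis. The MCM genes and PCNA LOC115719066 lie in the lower left, cyclins A1-1 and A2-3 in the lower right with the B-type CDKs nearer the middle, and cyclin-D1-1 alone at the top left.

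Other cell cycle genes were followed with a list of 162, of which 126 were tested: E2F and retinoblastoma-related factors, the anaphase-promoting complex, spindle checkpoint and Aurora proteins, nucleotide synthesis, replication protein A, condensin, kinesins and microtubule-associated proteins. In male against female week 3 apices 68 were higher and 20 lower, where 31.7% of all genes were higher and 28.6% lower, with a median difference of 0.59 where that of all genes was -0.019. In male week 3 against male week 1, 55 were higher and 33 lower, where 33.8% of all genes were higher and 27.9% lower. In female week 3 against female week 1, 7 were higher and 50 lower, where 18.7% of all genes were higher and 16.5% lower. These splits are from the main fit, and this list was not counted under TPM or with a library left out. TPM moved the median of all genes by -0.245 in male against female week 3 and by 0.195 in female week 3 against week 1. Of the 126, 5 passed the filter through male week 3 alone. The steepest was a CDC20.3-like activator of the anaphase-promoting complex (LOC115708098), with 77.3 and 100.2 FPKM in male week 3 libraries, against 0.332 and 0.152 FPKM in female week 3 and 0.162 and 0.262 FPKM in male week 1 libraries. It is 1 of those 5, so its higher level there was set by the filter. The microtubule bundling protein MAP65-3 (LOC115708218), which acts in the phragmoplast, had 131 and 131 FPKM in male and 8.09 and 7.90 FPKM in female week 3 libraries. The kinesin motor KIN-14L (LOC115711701) had 52.4 and 87.7 FPKM in male and 3.88 and 4.36 FPKM in female week 3. In female apices the largest falls from week 1 were those of CDC20.1 (LOC115714327), the checkpoint protein MAD2 (LOC115711949), the ribonucleotide reductase small chain (LOC115699054) and Aurora-2 (LOC115724858), at -1.57, -1.52, -1.49 and -1.44. GMI1 (LOC115716455), a hinge-domain protein linked in Arabidopsis to DNA repair by recombination, was higher in flowering than in vegetative apices in all 4 comparisons, by 1.04 at male week 1, 1.01 at female week 1, 2.49 at male week 3 and 2.79 at female week 3.

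The authors' deposited table gives its own calls, at an adjusted p under 0.05, with the first-named group on top. Of its 35192 genes 10910 were at 0 in every library and 16883 did not pass the filter used here. Of the 90 genes 2 and 6 did so. Shares over all 35192 genes therefore cannot be set beside those of the 90 genes, or beside the shares of genes tested. In female against male week 3, the authors' deposited table has 13 of the 90 genes higher and 37 lower in female, and 4587 higher and 5769 lower of all 35192. In female week 1 against female week 3, the authors' deposited table has 34 higher and 9 lower in week 1, and 3831 and 3608 of all genes. In male week 1 against male week 3, the authors' deposited table has 20 higher and 23 lower in week 1, and 4057 and 5101 of all genes; these 43 calls compare with 52 by limma. For male week 1 against vegetative apices the authors' deposited table has 3 higher and 0 lower, where limma called 6 and 3. For female week 1 against vegetative apices it has 3 and 1, as limma did. Of all 35192 genes it has 425 higher and 385 lower in male week 1, and 756 and 579 in female week 1. Against vegetative apices the authors' deposited table has 30 higher and 22 lower in male week 3, and 10 higher and 31 lower in female week 3. Of all genes, 5635 were higher and 4503 lower in male week 3, and 3502 and 3489 in female week 3.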

How the data were processed

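Messenger RNA of 10 shoot-apex libraries was measured, 2 in each of 5 groups taken from the labels. The unit of the levels is not named in the file headers; the deposited values were read as FPKM, which cannot be told apart from RPKM here. Per the file headers, the table also holds the authors' log2 fold changes with a p-value for each pair of groups, the percent identity to an Arabidopsis protein and coordinates on assembly ASM2916894v1. Aligner and counter: not given in the sources used here. Depth in reads is unknown, so no counting interval is given. Relative depth, from values of 0.001 to 0.2 FPKM, ran from 0.863 to 1.24. The highest, 1.23 and 1.24, were those of the female week 3 libraries, and all other libraries were at most 1.031.

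The 18309 genes whose mean reached 1 FPKM in any group were taken to log2(FPKM + 1), and limma 3.58.1 (R 4.3.3), trend and robust, was run with 1 mean per group over all 10 libraries; residual degrees of freedom were 5 and prior ones had a median of 4.63. Contrasts were 2-sided, Benjamini-Hochberg adjusted over all 18309 genes. What was tried beside this was a pseudocount of 0.1, no filter and a filter at 5 FPKM, TPM, median-of-ratios scaling, a replicate block, only the groups compared, and each library left out. All 90 genes matched the RefSeq table of the same assembly at the same coordinates.

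Genes, lists and tests were chosen with earlier results of these data known. Named were, in each role, the gene with the highest mean, up to 12 called genes with the largest difference per side and comparison, and for the list of other cell cycle genes up to 4 per side; further genes among the 90 are named after their values were seen, to account for each.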

Additional observations from a re-analysis of the deposited data

Results flagged for a closer look

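The change between weeks differed by sex, by the interaction contrast of the limma fit, for 37 of the 84 genes tested, where 45.6% of all genes tested were called. The 6 largest differences on the male side were those of cyclin-A3-4-like (LOC115710671) at 5.53 ± 0.20, cyclin-D4-1 (LOC115711305) at 4.36 ± 0.35, cyclin-D5-1-like (LOC115707990) at 4.06 ± 0.26, cyclin-A1-1 (LOC115724432) at 3.96 ± 0.23, ORC2 (LOC115712158) at 3.95 ± 0.18 and cyclin-T1-3 (LOC115694713) at 3.54 ± 0.29, as log2 differences with standard errors. Of these, cyclins A3-4-like and D5-1-like passed the filter through male week 3 alone, which fixed their direction. Cyclin-A1-1 and ORC2 were higher at week 3 in male and lower in female apices, and cyclin-T1-3 was higher at week 3 in both. The female call of ORC2 was lost without female week 1 replicate 1 (0.0657), female week 1 replicate 2 (0.199), female week 3 replicate 1 (0.199) or female week 3 replicate 2 (0.0777), with the adjusted p without that library in parentheses.

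On the female side the 6 largest were cyclin-D1-1 (LOC115712518) at -2.97 ± 0.25, cyclin-D6-1 (LOC115704664) at -1.46 ± 0.20, cyclin-D5-1 (LOC115714887) at -1.40 ± 0.23, cyclin-D3-3 (LOC115702731) at -1.31 ± 0.20, cyclin-D3-1 (LOC115702964) at -1.19 ± 0.19 and cyclin-A2-2 (LOC115699101) at -0.95 ± 0.21. Of the 6, 5 are D-type cyclins, and all 6 were lower at week 3 than at week 1 in male apices, a call that cyclin-D1-1 lost without male week 1 replicate 1 (0.18) or male week 3 replicate 2 (0.157). The other 10 interaction calls, without cyclins A3-4-like and D5-1-like, held with any 1 library left out. The summed meiosis and tapetum lists, which were high in male week 3 alone, move with them, and their part was not tested.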

How the results depend on the processing

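Over the 292 calls of single genes, no alternative turned a direction. With 1 library left out, 1109 of 1313 values kept their call, and of 2030 values under the other alternatives 1952 did. The number of genes called, with 1 library left out, ran from 4 to 9 for male week 1 against vegetative apices (9 with all libraries), 2 to 4 for female week 1 against vegetative (4), 49 to 56 for male week 3 against vegetative (59), 26 to 30 for female week 3 against vegetative (39), 45 to 50 for male against female week 3 (52), 45 to 53 for male week 3 against male week 1 (52), 26 to 32 for female week 3 against female week 1 (40) and 33 to 40 for the interaction (37). Male against female week 1 stayed at 0 throughout. The replicate numbers did not pair the samples: deviations of same-numbered libraries correlated from -0.42 to 0.21 over 10 pairs of groups, 2 of them above 0.1. With a replicate block the count for male week 1 against vegetative was 5, and with only the groups compared it was 3. Over all genes 990 and 404 were then called, against 1172 in the main fit. TPM changed splits and some totals. It gave 33 higher and 28 lower for male against female week 3, 61 in all, 17 and 23 for female week 3 against week 1, 14 and 21 for female week 3 against vegetative, and 25 and 19 for the interaction, 44 in all, where the median of all genes moved by -0.23. TPM divides each value by the total of its library. The female week 3 libraries had the lowest totals, 630805 and 603616 FPKM. In comparisons without female week 3, the largest move of the median of all genes was -0.026. Why the female week 3 totals were low was not tested. Depth in reads is unknown, so levels below about 1 FPKM are imprecise.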

Other observations

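Several mitotic cyclins and CDK inhibitors carry other names and were left out by the choice of words. They were found after their values had been seen, and only values are given. The G2/mitotic-specific cyclin S13-7 (LOC115701151), whose closest Arabidopsis protein is a B1 cyclin, had 44.7 and 44.9 FPKM in vegetative libraries, 59.7 and 45 in the male and 45 and 54.6 in the female libraries of week 1, and 121 and 181 in the male and 23.8 and 22.2 in the female libraries of week 3. Male week 3 was above and female week 3 below all other libraries, as for the B-type kinases. A second S13-7 (LOC115718744) had 32.5 and 47.2 FPKM in male and 10.1 and 8.94 FPKM in female week 3, and cyclin-2 (LOC115702647) had 66.6 and 86.5 FPKM in male and 9.65 and 8.29 FPKM in female week 3. At week 1 cyclin-2 had 21.8 and 19.1 FPKM in male and 18 and 18 FPKM in female libraries.

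A different order was seen in cyclin-2 LOC115702619, with 14.2 and 14.5 FPKM in male and 11.5 and 10.1 FPKM in female week 3, both below its 30.5 and 26.4 FPKM in male and 25.3 and 28.4 FPKM in female week 1. Cyclin-2 LOC115713814 and cyclin C13-1 (LOC115695755) were likewise below their week 1 levels in both sexes. C13-1 had 7.70 and 9.30 FPKM in male and 9.01 and 6.72 FPKM in female week 3, against 20.7 and 19.2 FPKM in male and 16.7 and 18.4 FPKM in female week 1.

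Cyclin-SDS (LOC115721811), a cyclin of meiosis in Arabidopsis, had 19.3 and 12.5 FPKM in male week 3 libraries and at most 1.13 FPKM in any other. Of the SMR-type CDK inhibitors, SMR6 LOC115715125 had 30.6 and 26.7 FPKM in male and 19.3 and 18.6 FPKM in female week 3, against 5.46 and 6.69 FPKM in vegetative libraries. The other SMR6 (LOC115698855) ran the other way, with 8.07 and 8.73 FPKM in male and 11.3 and 9.25 FPKM in female week 3, against 16.3 and 12.5 FPKM in vegetative libraries.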
